A study of Mus musculus with 6 samples.

Results

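Genes of thyroid hormone action were examined in the whole brains of male mice in which a human SRY transgene had or had not been activated. The 9 genes were set as a list, namely the receptors Thra and Thrb, the deiodinases Dio2 and Dio3, the hormone-binding protein gene Crym and the response genes Hr, Klf9, Thrsp and Nrgn, and every probe carrying one of these symbols was taken. They had 11 of the 25697 probes on the arrays, which covered 18138 gene symbols in all. Both groups were male FVB mice at postnatal day 6 with 3 arrays each. hSRY-OFF mice carried the unrecombined Signalox-hSRY transgene, a single copy at the H11 locus in which the CAG promoter drives DsRed2 and SRY is silent. hSRY-ON mice carried the same transgene after Cre had removed DsRed2 in the fertilized egg, so that CAG drives FLAG-tagged human SRY and EGFP in all organs, and those chosen for the arrays did not carry Ddx4-Cre itself. The transgene came from 1 line. Each probe is a short DNA strand fixed to beads, and the brightness of the beads is read as the amount of its transcript.

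Thyroid hormone reaches the brain mainly as the prohormone thyroxine, which is carried across membranes by transporters and converted by Dio2 to the active hormone triiodothyronine, while Dio3 inactivates both forms. Triiodothyronine binds receptors encoded by Thra and Thrb, which sit on DNA together with retinoid X receptors, hold genes down with corepressors when empty and switch them on with coactivators when the hormone is bound. In the postnatal rodent brain the hormone is known to time myelination, cerebellar growth and the maturation of neurons.

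The receptors are known to recognize copies of the half-site AGGTCA, often as a pair separated by 4 bases (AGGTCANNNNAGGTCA). Promoter sequences of RefSeq (build GRCm38.p6) could be matched for 6 of the 9 genes, in 7 windows of 250 bases ending just before the annotated start, and 3 of these windows are shown to let a reader see the regulatory sequence of a receptor, a deiodinase and a response gene. Both strands were searched, a spaced pair also counts as half-sites, and capitals mark a half-site.
Thrb, chr14:17660710-17660959, plus strand: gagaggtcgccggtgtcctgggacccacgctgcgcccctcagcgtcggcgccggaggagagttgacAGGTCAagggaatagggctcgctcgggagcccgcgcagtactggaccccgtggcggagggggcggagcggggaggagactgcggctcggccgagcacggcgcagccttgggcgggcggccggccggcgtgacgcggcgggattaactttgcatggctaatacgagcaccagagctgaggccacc
Dio3, chr12:110278980-110279229, plus strand: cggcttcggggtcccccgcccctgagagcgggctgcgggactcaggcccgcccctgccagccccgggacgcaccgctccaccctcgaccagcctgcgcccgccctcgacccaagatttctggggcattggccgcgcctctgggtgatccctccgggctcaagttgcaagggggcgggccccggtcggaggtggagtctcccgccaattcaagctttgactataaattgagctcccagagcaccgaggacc
Nrgn, chr9:37552746-37552995, minus strand: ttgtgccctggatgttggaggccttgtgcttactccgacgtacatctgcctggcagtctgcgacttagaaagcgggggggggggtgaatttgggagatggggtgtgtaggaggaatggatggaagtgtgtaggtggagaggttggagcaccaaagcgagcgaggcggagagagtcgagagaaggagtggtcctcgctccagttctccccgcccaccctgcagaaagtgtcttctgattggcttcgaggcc
The half-site occurred in 1 of the 7 windows, that of Thrb, where it began 184 bases before the start, and in 14.0% of all 32851 windows of this length. The spaced pair occurred in none of the 7 and in 0.0152% of all windows. The other windows searched were a second start of Thrb and those of Dio2, Klf9 and Thrsp. These matches describe the letters of the windows, and binding was not measured.

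The arrays were first checked for the tissue and for the depth of signal behind the genes. The median intensity per array lay between 200 and 220, and 13816 to 14377 probes were above the negative controls at a detection p-value under 0.05. The neuronal genes Stmn2 and Syt1 and the myelin gene Mbp were detected on all 6 arrays, whereas the single Snap25 probe was detected on none. Of 6 pituitary probes 5 (Prl, Pomc, Tshb, Cga and Pit1) were detected on no array and Gh on 3 arrays. Probes detected on 3 or more arrays were tested, which left 14215, among them 9 probes of 7 thyroid hormone action genes, each detected on all 6 arrays. Thrb and Dio2 had 1 probe each and were not above background on any array.

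None of the 9 tested probes passed an adjusted p of 0.05 in the limma fit across all tested probes, where 2.17% of probes passed. The nearest was Hr, which was lower in hSRY-ON, followed by Dio3 and Thra, which were higher. At an unadjusted p under 0.05 there were 3 of the 9 (Hr lower, Dio3 and 1 of 2 Thra probes higher), against 20.9% of all tested probes (10.1% higher and 10.9% lower). The values of hSRY-ON lay wholly on one side of those of hSRY-OFF for 5 of the 9, against 27.7% of all tested probes. The log2 fold changes, given as hSRY-ON minus hSRY-OFF throughout, ran from -0.41 to 0.44 with a median of 0.09 (6 above and 3 below 0), beside a median of 0.0048 over all tested probes. The median of the 9 changed with single arrays, to 0.17 when array 1 of hSRY-OFF was left out, to 0.04 for its array 3, and to 0.19 and 0.21 for arrays 1 and 3 of hSRY-ON. The number of arrays, 3 per group, limits the precision, and the intervals below show how large a difference remains possible.

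**Figure D1:**
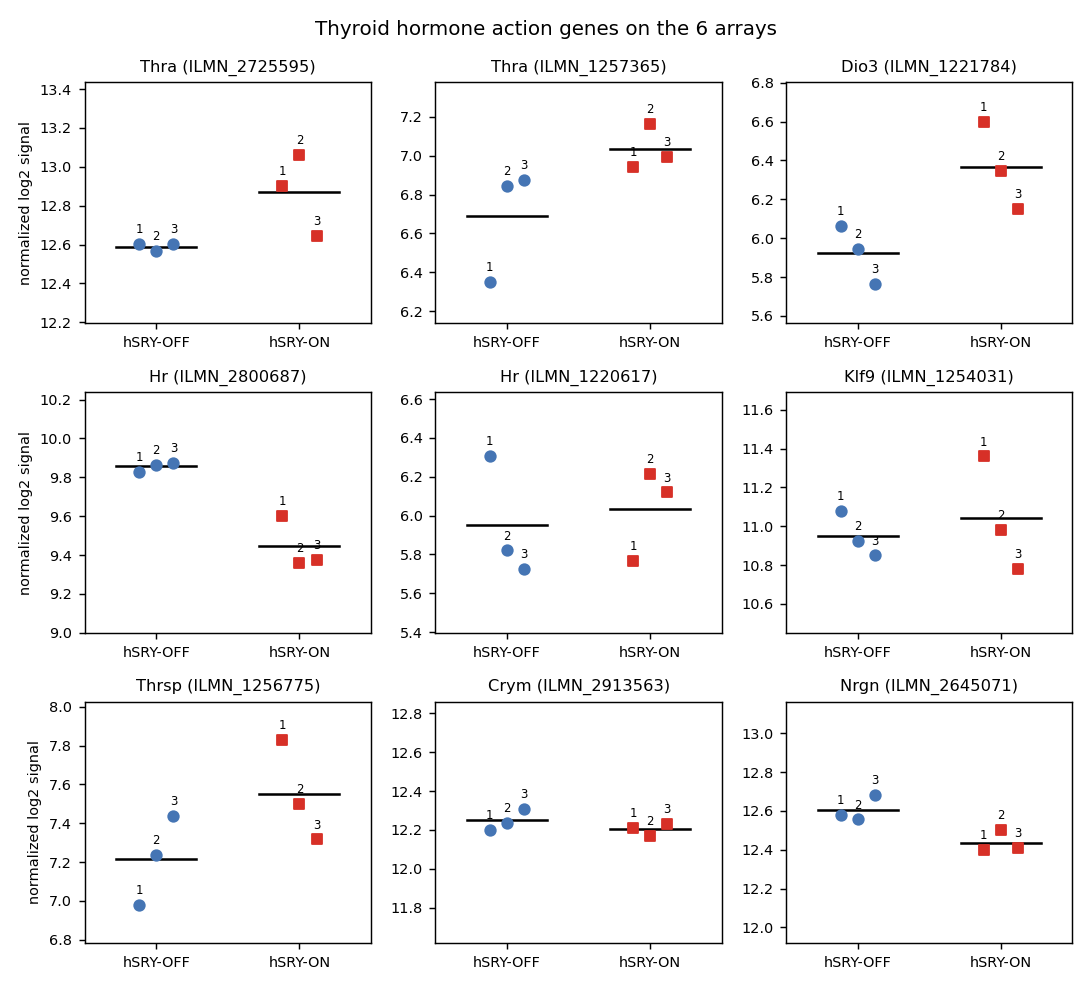
Normalized log2 signal of the 9 tested probes on each array, with 1 panel per probe, all panels spanning the same height, blue circles for hSRY-OFF, red squares for hSRY-ON, the array number above each point and a bar at the group mean (n = 3). The hSRY-ON points of Hr (ILMN_2800687) and Nrgn lie below all hSRY-OFF points, and those of Dio3 and of both Thra probes lie above. The groups overlap for Hr (ILMN_1220617), Klf9, Crym and Thrsp.

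Of the receptors, Thra, which encodes the main thyroid hormone receptor of the brain as well as a form that does not bind the hormone, had 2 probes. Probe ILMN_2725595 gave 12.60, 12.57 and 12.60 in hSRY-OFF and 12.90, 13.06 and 12.64 in hSRY-ON (normalized log2 signal of arrays 1 to 3, in this order here and below). All hSRY-ON values lay above the hSRY-OFF values, but array 3 of hSRY-ON by little. The means were 12.59 ± 0.02 and 12.87 ± 0.21 (SD, n = 3 per group), a log2 fold change of 0.28 (SE 0.12, limma adjusted p 0.229).

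The dimmer probe ILMN_1257365 gave 6.35, 6.84 and 6.88 in hSRY-OFF and 6.94, 7.17 and 6.99 in hSRY-ON. It again showed no overlap, with hSRY-OFF array 1 set apart below the rest, and its log2 fold change was 0.34 (SE 0.15, limma adjusted p 0.259). It was 0.17 without that array and 0.15 without background correction. The brighter probe was at 0.18 without hSRY-ON array 2. Both probes of Thra differed in the same direction without passing the threshold. When limma's prior for the spread was allowed to vary with signal, the brighter probe passed, at an adjusted p of 0.0202 in limma, in a fit that called 1434 of all probes. In the annotation table Thra overlaps Nr1d1, and which transcripts the 2 probes read was not determined here.

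Thrb, which encodes the second receptor, had intensities of 160, 155 and 151 in hSRY-OFF and 154, 154 and 157 in hSRY-ON. These were within the negative controls, with detection p-values from 0.639 to 0.905, so no fold change is given.

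The deiodinases set the local supply of active hormone. Dio2 had intensities of 175, 175 and 167 in hSRY-OFF and 179, 165 and 171 in hSRY-ON, with detection p-values from 0.190 to 0.361, and was not above background in either group. Dio3 (ILMN_1221784) was detected on every array, though dimly, with intensities of 231, 211 and 201 in hSRY-OFF and 251, 223 and 218 in hSRY-ON. On the linear scale the groups overlapped, since hSRY-OFF array 1 was brighter than 2 hSRY-ON arrays.

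After background correction and normalization Dio3 gave 6.06, 5.94 and 5.77 in hSRY-OFF and 6.60, 6.35 and 6.15 in hSRY-ON, with no overlap. Its log2 fold change of 0.44 (SE 0.14, 95% interval 0.12 to 0.76, limma adjusted p 0.133) was the highest of the 9 probes, at 1.36-fold. The size depended on the background correction, and without it the log2 fold change was 0.14 (limma adjusted p 0.214). With 1 array left out it ran from 0.32 without hSRY-ON array 1 (limma adjusted p 0.275) to 0.55 without hSRY-ON array 3 (0.0784).

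Crym encodes mu-crystallin, a protein of the cytosol that binds triiodothyronine. Its probe ILMN_2913563 gave 12.20, 12.24 and 12.31 in hSRY-OFF and 12.21, 12.17 and 12.23 in hSRY-ON. The groups overlapped, and the log2 fold change of -0.05 (SE 0.07, 95% interval -0.22 to 0.13, limma adjusted p 0.772) was the one nearest to 0 among the 9.

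Of the response genes, Hr encodes hairless, a nuclear corepressor whose gene is a direct target of the receptors in brain. Probe ILMN_2800687 gave 9.83, 9.86 and 9.88 in hSRY-OFF and 9.60, 9.36 and 9.37 in hSRY-ON. The hSRY-OFF arrays were tightly grouped, and all hSRY-ON arrays lay below them. The means of 9.86 ± 0.024 and 9.44 ± 0.13 (SD, n = 3 per group) gave a log2 fold change of -0.41 (SE 0.09, 95% interval -0.63 to -0.20), a level 1.33-fold higher in hSRY-OFF. Its unadjusted p of 0.00269 ranked 560 among the 14215 probes in limma, and its adjusted p of 0.0682 lay just outside the threshold.

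Whether Hr passed depended on the processing, as it did for probes in general. It passed in 5 of 17 other settings, with a limma adjusted p of 0.00720 without background correction, and these 5 called 705 to 1447 of all probes where 308 were called as reported. It did not pass in the 6 fits that left out an array (0.0848 to 0.186), of which 5 called 0 or 1 probe in the whole table. The log2 fold change lay between -0.49 and -0.35 in all 17. The second Hr probe, ILMN_1220617, was dim, with intensities from 200 to 245, and disagreed, with values of 6.31, 5.82 and 5.73 in hSRY-OFF and 5.76, 6.21 and 6.12 in hSRY-ON. Its log2 fold change was 0.08 (SE 0.18, 95% interval -0.35 to 0.51, limma adjusted p 0.840), and it was below 0 without hSRY-OFF array 3 (-0.030) or hSRY-ON array 2 (-0.0092).

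Nrgn encodes neurogranin, a calmodulin-binding protein of forebrain neurons whose transcript is lowered in hypothyroid animals. Its probe ILMN_2645071 gave 12.58, 12.56 and 12.68 in hSRY-OFF and 12.40, 12.50 and 12.41 in hSRY-ON. The groups did not overlap, and the log2 fold change was -0.17 (SE 0.08, 95% interval -0.36 to 0.02, limma adjusted p 0.279). Beside it, 4 probes of forebrain excitatory neuron genes were tested, 2 of Camk2a and 1 each of Slc17a7 and Tbr1. Those of Camk2a and Slc17a7, 3 of the 4, were below 0, and Tbr1 was at 0.03. None passed the test, and 2 were at an unadjusted p under 0.05 in limma, both lower, where 10.9% of all probes were. The summed normalized signal of the 4 probes (on the linear scale, as in later sums) was 8217 to 9394 in hSRY-OFF and 6435 to 7632 in hSRY-ON. Neurod6 was not detected, and the part of these neurons in the Nrgn value was not tested. In whole tissue, fewer cells of a type and less RNA per cell cannot be told apart.

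Klf9 encodes a zinc-finger transcription factor that responds to thyroid hormone and also to glucocorticoids. Its probe ILMN_1254031 gave 11.08, 10.93 and 10.85 in hSRY-OFF and 11.36, 10.98 and 10.78 in hSRY-ON. Array 1 was the highest in each group and the groups overlapped, with a log2 fold change of 0.09 (SE 0.15, 95% interval -0.27 to 0.45, limma adjusted p 0.789). Its sign turned without hSRY-ON array 1, at -0.07. The tested probes of other genes that respond to glucocorticoids (Fkbp5, Tsc22d3, Per1, Sgk1 and Sult1a1) were all above 0, 7 of 7, and 2 of them (Fkbp5 and Sult1a1) passed the test, where 0.844% of all probes were called higher. This list was chosen with earlier results of these data known, and Sult1a1 had the lowest p of all tested probes in limma. Its counts are therefore a description only. With 1 array left out Fkbp5 passed in 1 of 6 fits and Sult1a1 in 3 of 6. Of these 6 fits, 5 called 0 or 1 probe in the whole table. The summed signal of the 7 probes of this list was 7477 to 8349 in hSRY-OFF and 8900 to 11604 in hSRY-ON.

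Thrsp encodes Spot14, a nuclear protein tied to lipid synthesis. Its probe ILMN_1256775 gave 6.98, 7.24 and 7.44 in hSRY-OFF and 7.83, 7.50 and 7.32 in hSRY-ON. hSRY-ON array 3 lay below hSRY-OFF array 3, and the log2 fold change was 0.33 (SE 0.17, 95% interval -0.06 to 0.72, limma adjusted p 0.302). It was 0.19 without hSRY-ON array 1, 0.21 without hSRY-OFF array 1 and 0.18 without background correction. Among the 5 tested probes of the response genes 3 were above 0 and 2 below, and both of those below had no overlap between groups, as had 27.7% of all tested probes.

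**Figure D2:**
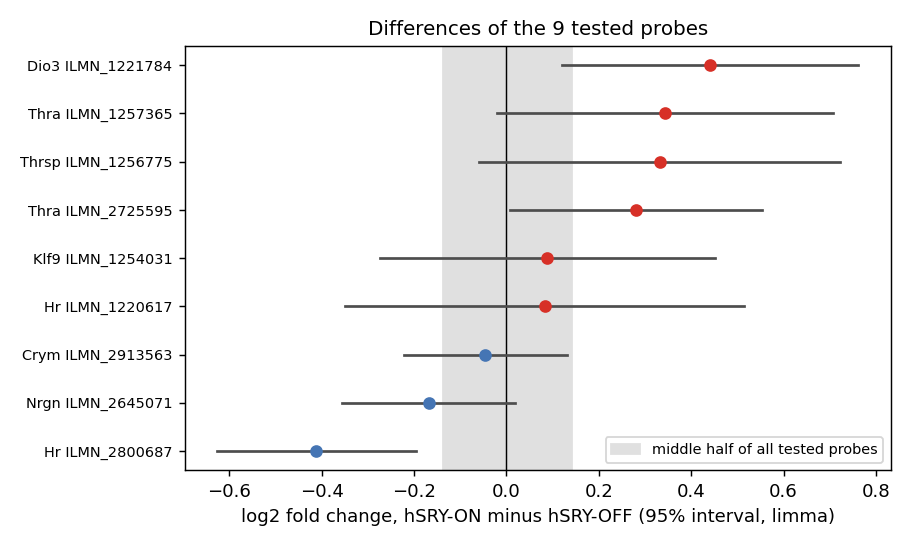
Log2 fold change (hSRY-ON minus hSRY-OFF) of the 9 tested probes with its 95% interval from limma (n = 3 per group), red above 0 and blue below, over a grey band that spans the quartiles of all tested probes (-0.14 to 0.14). The intervals of Hr (ILMN_2800687), Dio3 and Thra (ILMN_2725595) leave out 0 before adjustment, and the other 6 include it.

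The genes most like the 2 probes with the lowest p were looked up by Pearson's correlation over the 6 arrays. For Hr (ILMN_2800687) these were Gpr123 (r = 0.997), Men1 (0.995) and Aven (0.991), whose log2 fold changes were -0.33, -0.34 and -0.35. For Dio3 they were Serinc3 (0.997), Dnajb4 (0.993) and Trim67 (0.990), with log2 fold changes of 0.25, 0.40 and 0.41. With 6 points that share their arrays, 90 probes exceeded a correlation of 0.95 with Hr and 92 with Dio3, so the order among them is a description only.

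The wider pathway was read from a list of 30 further genes of hormone transport, activation, receptor complexes and hormonal control, of which 27 were on the arrays and 18 had a tested probe. None of their 22 tested probes passed the adjusted threshold in limma (6 at an unadjusted p under 0.05, 3 higher and 3 lower), where 2.17% of all probes passed it and 20.9% were at an unadjusted p under 0.05, and their median log2 fold change was 0.0055. The largest negative value was that of Slco1c1, which encodes a thyroxine transporter of brain capillaries and astrocytes.

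Slco1c1 (ILMN_1242173) gave 11.21, 11.04 and 11.11 in hSRY-OFF and 10.68, 10.84 and 10.77 in hSRY-ON. The groups did not overlap, and the log2 fold change was -0.36 (SE 0.09, limma adjusted p 0.0801). Like Hr it passed without background correction and in 4 other settings. Both probes of Slc7a8, an amino acid transporter that also carries thyroid hormones, were below 0 as well, at -0.32 (limma adjusted p 0.144) and -0.22 (0.295). Among 6 tested probes of astrocyte genes, those of Gfap and Aqp4 were called lower, where 1.32% of all probes were, and 5 of 6 lay below 0. Both calls were lost in 5 of the 6 fits with 1 array left out. Those 5 fits called 0 or 1 probe in the whole table, so the loss was not particular to these genes. The summed signal of the astrocyte probes was 34400 to 34964 in hSRY-OFF and 31360 to 36154 in hSRY-ON and came mostly from the bright probes of Slc1a3 and Gja1, which were at 0.03 and -0.04 on the log2 scale, while Gfap and Aqp4 were at -0.83 and -0.81. S100b was not detected, and their part in the Slco1c1 value was not tested.

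Ttr, which encodes the thyroxine carrier that the choroid plexus secretes into the cerebrospinal fluid, gave 13.77, 14.04 and 13.86 in hSRY-OFF and 14.31, 14.40 and 14.07 in hSRY-ON. The hSRY-ON values were all higher, with a log2 fold change of 0.37 (SE 0.12, limma adjusted p 0.144). It passed without background correction (limma adjusted p 0.0192). The 3 other choroid plexus probes detected in both groups (2 of Folr1 and 1 of Clic6) were above 0 as well, with a summed signal of 721 to 878 in hSRY-OFF and 899 to 1038 in hSRY-ON and none passing the test (1 at an unadjusted p under 0.05 in limma, where 10.1% of all probes were at one and higher). The Folr1 probes were at 0.06 and 0.18, with overlap between groups. Clic6 was at 0.44 without overlap, and its brighter probe made up most of the sum. A probe of Kl was left out of these 3 because it was detected on no hSRY-OFF array, so its place among the tested probes rested on hSRY-ON alone. The part of these cells in the Ttr value was not tested.

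Among the receptor partners Rxrg was at 0.06 (SE 0.09, limma adjusted p 0.768), and the 2 Rxrb probes were at 0.31 (SE 0.08, adjusted p 0.0916) and 0.08 (adjusted p 0.564). Med1, a Mediator subunit that contacts the bound receptor, had the highest value of the list at 0.41 (SE 0.16, adjusted p 0.210) and 0.21 (adjusted p 0.274) at its other tested probe. The corepressor gene Ncor1 was at -0.27 (SE 0.11, limma adjusted p 0.237). Trh and Trhr, the releasing hormone of the thyroid axis and its receptor, were at -0.12 each (limma adjusted p 0.492 and 0.802). Dio1, Alb, Serpina7, Tshb and Cga were not above background on any array.

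Genes known to respond to thyroid hormone in the developing brain were then counted from a second list of 23 genes, none among the 9, of which 20 had a tested probe. Of their 29 tested probes 4 passed the test, 1 higher (Agt) and 3 lower (Pcp2 and 2 probes of Mobp), where 0.844% of all probes were called higher and 1.32% lower. The median log2 fold change was -0.25, with 22 of 29 below 0. The 10 myelin probes had a median of -0.45 with 9 below 0, and the 19 other probes had a median of -0.18 with 13 below 0. Rasd2 was not analysed here.

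**Figure D3:**
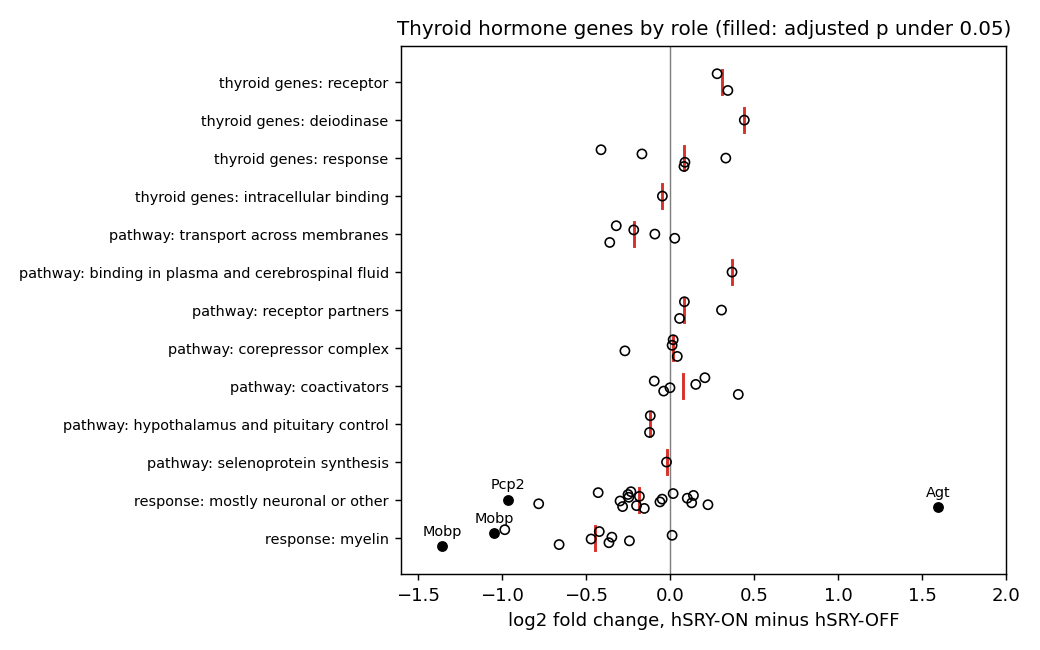
Log2 fold change (hSRY-ON minus hSRY-OFF, from limma) of each tested probe, with 1 row per role for the 9 thyroid hormone action genes, the wider pathway list and the response list, filled points for an adjusted p under 0.05 and a red bar at the row's median. The 4 filled points are Agt at 1.59, Pcp2 at -0.97 and Mobp at -1.05 and -1.36, and no point of the upper 2 lists is filled.

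Agt, which encodes angiotensinogen and is expressed by astrocytes in brain, rose. It gave 8.38, 8.69 and 8.79 in hSRY-OFF and 10.55, 10.32 and 9.77 in hSRY-ON, a log2 fold change of 1.59 (SE 0.21, limma adjusted p 0.0263). Agt is known to be induced by glucocorticoids as well as by thyroid hormone.

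Pcp2, a gene of Purkinje cells of the cerebellum, fell. It gave 10.60, 10.82 and 10.54 in hSRY-OFF and 9.68, 9.58 and 9.80 in hSRY-ON, a log2 fold change of -0.97 (SE 0.11, limma adjusted p 0.0243). Itpr1, another gene rich in Purkinje cells, was at -0.28 (SE 0.08, limma adjusted p 0.114), whereas Rora, which Purkinje cells also express, was above 0 at its tested probe, at 0.23 (SE 0.10, limma adjusted p 0.241), without overlap between groups. The study reported a thinner cerebellar cortex and smaller Purkinje cells in hSRY-ON pups at a later age. In these genes a hormone response and the amount of Purkinje cells or their RNA cannot be told apart.

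Mobp, a gene of the myelin sheath, fell at 2 of its 3 probes, with log2 fold changes of -1.05 (limma adjusted p 0.0225) and -1.36 (0.0348), and was at -0.98 (0.0637) at the third. The brightest Mbp probe gave 13.82, 14.10 and 13.83 in hSRY-OFF and 13.46, 13.47 and 13.41 in hSRY-ON, without overlap and with a log2 fold change of -0.47 (SE 0.10, limma adjusted p 0.0601), while its other probes were at 0.01 and -0.42. The 5 myelin genes of the response list are also markers of oligodendrocytes, so a hormone response and the amount of these cells cannot be told apart in them. Mog, an oligodendrocyte gene outside the list, was below 0 at both probes, with a summed signal of 600 to 1089 in hSRY-OFF and 388 to 434 in hSRY-ON and values of -0.92 and -1.03 (limma adjusted p 0.0702 and 0.0580). The calls of Agt, Pcp2 and Mobp were lost in the fits without any 1 of the hSRY-OFF arrays and without hSRY-ON array 1 or 2. These fits called 0 or 1 probe in the whole table, so the loss was not particular to these genes, and without hSRY-ON array 3, where 417 probes were called, the calls were kept. Over the 6 fits the log2 fold change of Agt ran from 1.42 to 1.81 and that of Pcp2 from -1.02 to -0.88.

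**Figure D4:**
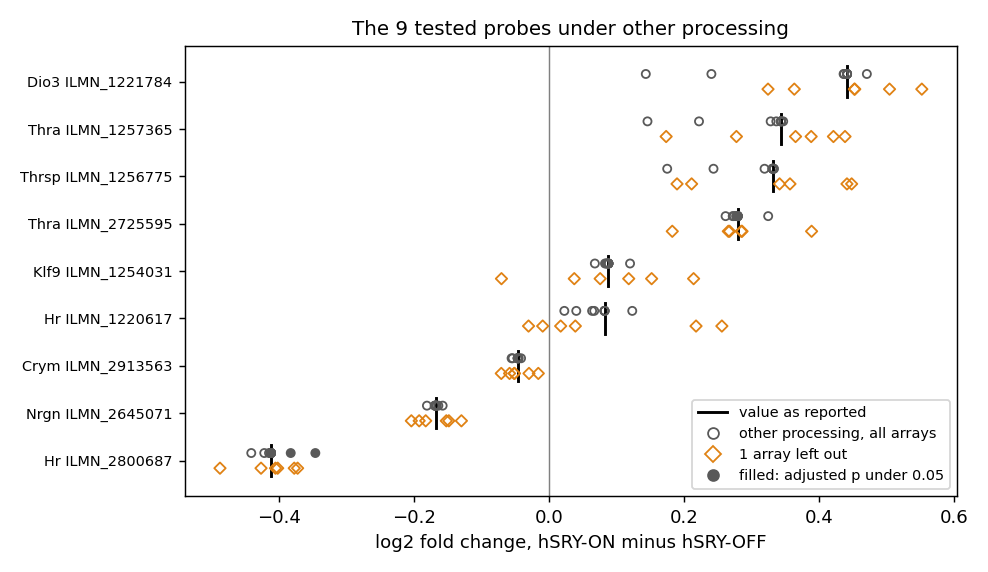
Log2 fold change (hSRY-ON minus hSRY-OFF) of the 9 tested probes under other processing, with a black bar at the reported value, grey circles for other settings with all arrays, orange diamonds for fits with 1 array left out and filled marks for an adjusted p under 0.05. Only Hr (ILMN_2800687) and Thra (ILMN_2725595) have filled marks, and the diamonds of Klf9 and Hr (ILMN_1220617) fall on both sides of 0.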

How the data were processed

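The authors deposited a table of mean bead signal intensity per probe and array from Illumina MouseRef-8 v2.0 arrays, on a linear scale and not normalized, with a detection p-value beside each intensity. A background correction is not given in the sources used here. The study's methods name TCC and the submitters' processing notes name limma, and TCC was not run. Here background was removed by normexp in limma (control mean and SD inferred from the deposited detection p-values, offset 16), and the values were quantile normalized and put on the log2 scale, which widens the spread of dim probes. A detection p-value under 0.05 on 3 or more arrays was required. Each probe was fitted with lmFit and eBayes (two-sided, group as the only term), with Benjamini-Hochberg adjustment over all tested probes, in limma 3.58.1 and R 4.3.3, after a test on simulated data. Probes of 1 gene were kept apart. Samples were grouped by the genotype in their titles. The 9 genes and the lists were chosen with earlier results of these data known. Genes of the further lists were named if called, if they had a list's largest value in either direction, or if set by name (Slco1c1, Ttr, Rxrg, Rasd2, Mbp, Itpr1), and other genes of the lists, among them Slc7a8, Rxrb, Med1, Ncor1, Trh, Trhr and Rora, were chosen after their values were seen. Some genes of the further lists are not reported here and were left out of their counts. Of the 18138 array symbols 14307, including all 9, are symbols of the annotation (GRCm38.p6). Alternatives changed the background correction, normalization, filter, prior, weights, block, probes per symbol and threshold, and left out each array. Figures used matplotlib 3.10.9 in Python 3.11.15.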

Additional observations from a re-analysis of the deposited data

How the results depend on the processing

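The number of calls over all tested probes was 308 as reported, 1317 without background correction, 860 with normexp on the signals at an offset of 50, 705 with the strict filter (a detection p-value under 0.01 on all arrays), 1434 with a trend in the prior and 1447 with the trend and the robust option, and the counts below moved with it. The normexp setting changed 2 things at once, the source of the background estimate and the offset, which was 16 as reported. Of the 9 tested probes, the count passing an adjusted p of 0.05 was 0 as reported. It became 1 (Hr) without background correction, with normexp on the signals at an offset of 50, with the strict filter and at an adjusted p under 0.10, and 2 (Hr and Thra) with a trend in the prior, with or without the robust option. In the 6 fits without an array it was 0, but 5 of these fits called 0 or 1 probe in the whole table, so this says nothing of stability, and the other, without hSRY-ON array 3, called 417. The pathway list went from 0 calls to 3 without background correction, 1 with normexp on the signals at an offset of 50, 1 with no filter on dim probes (Cga, itself not above background), 1 with the strict filter and 2 with either trend prior. The response list went from 4 calls to 11, 8, 7, 14 and 11 without background correction, with normexp on the signals at an offset of 50, the strict filter, the trend and the trend with the robust option, and ranged from 0 to 4 without an array. The marker lists went from 6 to 17, 15, 14, 21 and 18 in the same order, and from 0 to 8 without an array. The deviations of same-numbered arrays from their group means had r of 0.025 to 0.040 over probes. The other pairs of arrays from the 2 groups had r of -0.023 to -0.0054. Values this weak cannot show whether the numbers pair the arrays. With the replicate block limma called 0 of the 9 probes, 0 of the response list and 0 of the marker lists, and 0 probes in all. Directions turned for Hr (ILMN_1220617), at -0.030 without hSRY-OFF array 3 and -0.0092 without hSRY-ON array 2 (range without an array -0.030 to 0.26), and for Klf9, at -0.070 without hSRY-ON array 1 (range -0.070 to 0.21), and no other of the 9 reversed.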
